A study of Mus musculus with 27 samples.

Results

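Gene expression was compared between the striatum and the frontal cortex of wild-type mice. The comparison used every library labelled wild-type, 7 from striatum and 6 from frontal cortex, which is 13 of the 27 libraries of the series. Tissue came from adult mice of about 2.5 months on the 129S1 background, with no treatment, 3 females and 3 males for frontal cortex and 3 females and 4 males for striatum. The other 14 libraries came from Igf2enh-/- mice of the same strain and age (6 frontal cortex, 8 striatum). These mice were homozygous for a deletion of an enhancer that lies between H19 and Igf2, with a loxP site left at the deletion, and they served here as a repeat of the regional comparison. RNA was extracted from pieces of dissected brain tissue, so a library holds the RNA of all cells in the piece, and libraries were made from total RNA after depletion of ribosomal RNA. The labels do not say which libraries came from the same mouse. The p-values therefore treat all 13 libraries as independent, and the spread they use is that between libraries.

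The striatum is the input nucleus of the basal ganglia. Most of its neurons are GABAergic spiny projection neurons, which receive dopamine from the midbrain and glutamate from the cortex, and which signal through cyclic AMP. Those of the direct pathway carry dopamine receptor D1 and substance P, and those of the indirect pathway carry dopamine receptor D2, an adenosine receptor and enkephalin. The frontal cortex is built mainly from layered glutamatergic projection neurons that load glutamate into vesicles with VGLUT1, the product of Slc17a7, alongside GABAergic interneurons of several classes.

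The 250 bases upstream of the annotated start of 5 genes are given here, since their regional levels are described in the following paragraphs. Isl1, Gpr6 and Tac1 were higher in striatum, and Slc17a7 and Grm2 were higher in frontal cortex. Sequences are from RefSeq on GRCm38.p6, written 5′ to 3′ in the direction of the gene. Capitals mark matches, on either strand, to promoter motifs. The GC box was searched as GGGCGG. The CCAAT box was searched by the letters of its name. For the TATA box the letters were TATAAA. The cyclic AMP response element was searched as TGACGTCA. The windows are chr13:116309689-116309938 on the minus strand for Isl1, chr10:41072291-41072540 on the minus strand for Gpr6, chr6:7554811-7555060 on the plus strand for Tac1, chr7:45163671-45163920 on the plus strand for Slc17a7 and chr9:106656110-106656359 on the minus strand for Grm2.
Isl1: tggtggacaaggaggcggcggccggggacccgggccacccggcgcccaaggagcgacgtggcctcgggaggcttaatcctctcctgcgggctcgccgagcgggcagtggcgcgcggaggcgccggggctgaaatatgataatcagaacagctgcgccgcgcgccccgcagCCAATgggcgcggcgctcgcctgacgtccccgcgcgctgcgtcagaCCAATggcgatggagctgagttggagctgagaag
Gpr6: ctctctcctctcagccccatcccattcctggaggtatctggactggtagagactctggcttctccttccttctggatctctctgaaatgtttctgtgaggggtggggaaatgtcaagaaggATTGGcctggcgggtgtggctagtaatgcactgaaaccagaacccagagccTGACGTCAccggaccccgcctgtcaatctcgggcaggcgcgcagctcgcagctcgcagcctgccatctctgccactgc
Tac1: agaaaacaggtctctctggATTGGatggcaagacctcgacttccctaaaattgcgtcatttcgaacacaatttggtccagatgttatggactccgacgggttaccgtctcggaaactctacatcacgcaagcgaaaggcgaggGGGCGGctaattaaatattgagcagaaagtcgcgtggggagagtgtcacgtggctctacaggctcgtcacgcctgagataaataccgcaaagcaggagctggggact
Slc17a7: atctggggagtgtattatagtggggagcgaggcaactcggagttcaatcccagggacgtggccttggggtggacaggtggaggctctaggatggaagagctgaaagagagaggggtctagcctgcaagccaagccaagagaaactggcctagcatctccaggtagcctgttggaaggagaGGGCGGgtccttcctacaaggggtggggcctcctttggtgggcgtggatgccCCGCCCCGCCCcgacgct
Grm2: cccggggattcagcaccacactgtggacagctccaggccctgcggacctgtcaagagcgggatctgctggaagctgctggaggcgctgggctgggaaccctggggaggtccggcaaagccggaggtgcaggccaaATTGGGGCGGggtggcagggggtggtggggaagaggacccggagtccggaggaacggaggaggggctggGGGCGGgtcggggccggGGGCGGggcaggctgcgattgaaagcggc
The window of Gpr6 held 1 match to TGACGTCA, a motif present in 1.55% of 32851 promoter windows of the same length. The window of Isl1 held 2 matches to CCAAT, and those of Gpr6, Tac1 and Grm2 held 1 each, against 33.8% of all windows with a match. GGGCGG was matched 3 times in Slc17a7, 3 times in Grm2 and 1 time in Tac1, and was present in 32.7% of all windows. In Grm2 the CCAAT match overlapped a GC box. None of the 5 windows held TATAAA, which 12.4% of all windows held.

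The regions differed at most genes that were measured. A gene was tested where all libraries of striatum or all of frontal cortex reached 1 CPM, a count scaled to library size. A gene under that level in 1 region could enter only through the other, which favoured a higher level there. Of the 14586 genes tested, 9719 had a Benjamini-Hochberg adjusted p below 0.05 by quasi-likelihood in edgeR with sex as a covariate. Of these, 5063 (34.7% of the genes tested) were higher in striatum and 4656 (31.9%) were higher in frontal cortex. Most differences were small, with a median absolute log2 fold change of 0.42 among the genes that passed. A difference of at least 1 on the log2 scale was found for 843 genes higher in striatum (5.78%) and 885 higher in frontal cortex (6.07%), and a difference of at least 2 for 276 and 197 genes. Among the 843 striatal genes, 797 had every striatal library above every frontal cortex library, and among the 885 cortical genes 760 had the reverse, where 19.6% and 19.3% of all genes tested showed such a separation. RNA integrity moved with region. The RNA integrity numbers of the study were lower in striatum with some overlap, and among the striatal libraries the 4 lowest (14, 18, 22 and 24) were those with the least cortical transcript described further on. With the RNA integrity number as a term, 4070 genes passed, 2419 higher in striatum and 1651 higher in frontal cortex, and genes higher in frontal cortex by at least 1 on the log2 scale numbered 191. Most calls towards frontal cortex in the gene lists that follow did not pass in that fit, although most of those of meningeal genes did. Most calls of spiny neuron, cholinergic and oligodendrocyte genes towards striatum passed. Log2 fold changes are striatum over frontal cortex throughout, and levels are CPM scaled by the trimmed mean of M-values (TMM).

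**Figure D1:**
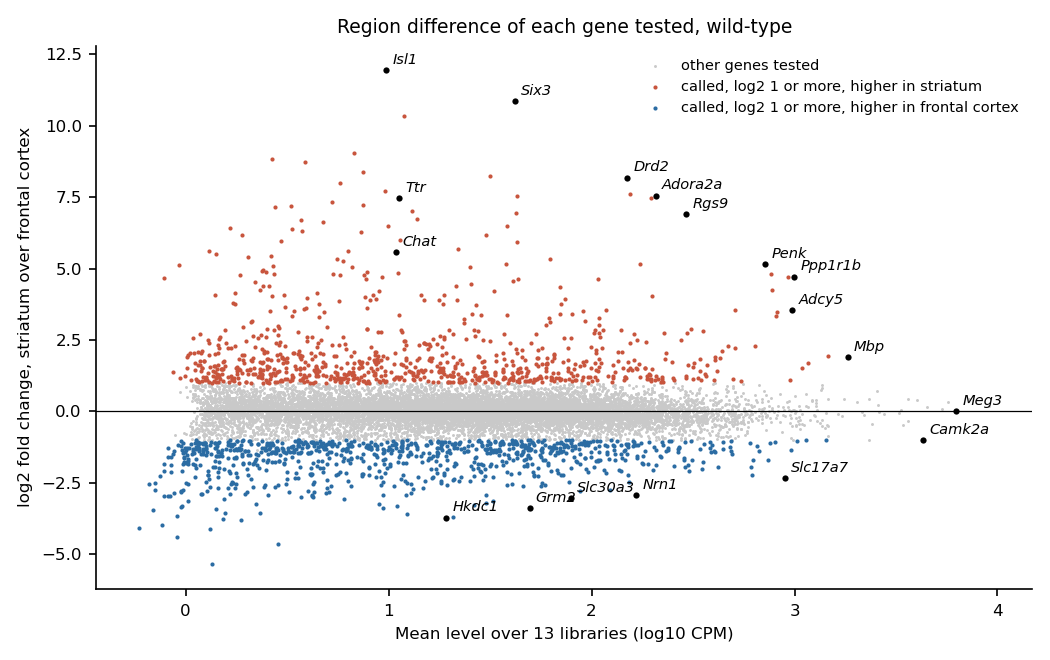
Log2 fold change of striatum over frontal cortex (vertical axis) against mean CPM on a log axis (horizontal axis) for the 14586 genes tested in 6 frontal cortex and 7 striatal wild-type libraries; colours mark the 843 and 885 genes that passed with a difference of at least 1 on the log2 scale. The striatal extreme reaches 11.95 and the cortical extreme -5.35.

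Totals ran from 26141526 to 27598498 counts in frontal cortex and from 23686945 to 33926904 in striatum, so 1 CPM stood for 23.7 to 33.9 counts. Mitochondrially encoded genes took 3.57% to 4.14% of the counts in frontal cortex and 4.51% to 4.86% in striatum, without overlap, and the part of this difference in the other results was not tested. Counts of Xist and Ddx3y matched the labelled sex in 27 of 27 libraries.

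Each of the 4 marker genes was higher in the region it marks. Drd2, which encodes dopamine receptor D2 (chr9:49340360-49408177, GRCm38), ranged from 0.652 to 1.12 CPM in frontal cortex (median 0.987) and from 135.6 to 374.4 CPM in striatum (median 300.4). The striatal libraries were thus higher by 8.19 on the log2 scale (standard error 0.298, adjusted p = 5e-09 by edgeR's quasi-likelihood test). Adora2a, the adenosine receptor (chr10:75316877-75334792), lay between 1.29 and 2.57 CPM in frontal cortex and between 185 and 552.7 CPM in striatum, a log2 fold change of 7.56 (standard error 0.292, adjusted p = 6.27e-09, same test). The groups did not overlap for either receptor, and library 20 was the lowest striatal library for Drd2. Ppp1r1b encodes DARPP-32, an inhibitor of protein phosphatase 1 that dopamine and cyclic AMP switch on (chr11:98348406-98357796). It was detected well in both regions, at 61.1 to 79.5 CPM in frontal cortex (median 65.5) and 918.3 to 2409 CPM in striatum (median 1892.3), a log2 fold change of 4.72 (standard error 0.226, adjusted p = 2.15e-08, same test). In tissue RNA, more cells of a type and more RNA per cell of that type cannot be told apart.

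Slc17a7 (chr7:45163921-45176139) was the least even of the 4. It lay between 1505.1 and 1666.8 CPM in frontal cortex (median 1557.5), a narrow range. In striatum it was 13.8 CPM in library 22, 17.6 in library 14, 89.7 in library 24, 284 in library 18, 474.8 in library 26, 564 in library 16 and 753 in library 20. Every striatal library was below every frontal cortex library, but the striatal libraries differed far more among themselves than the frontal cortex libraries did. Striatum over frontal cortex gave -2.34 on the log2 scale (standard error 0.762, adjusted p = 0.0158 by edgeR's quasi-likelihood test) and -2.74 without library 20 (adjusted p = 0.00649). With the RNA integrity number as a term it was -0.62 and did not pass (adjusted p = 0.713), whereas Drd2 kept a log2 fold change of 7.54 in that fit (adjusted p = 1.05e-07).

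**Figure D2:**
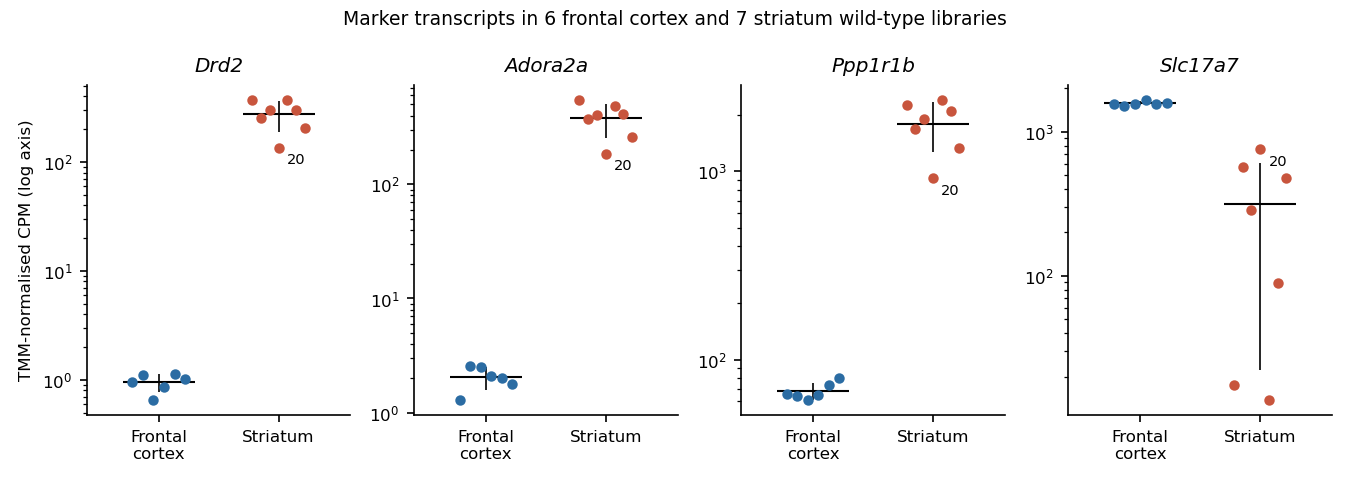
TMM-scaled CPM (log axis) of Drd2, Adora2a, Ppp1r1b and Slc17a7 in each of the 6 frontal cortex and 7 striatal wild-type libraries, 1 point a library. The regions do not overlap for any of the 4 genes, and the striatal points of Slc17a7 extend from 13.8 to 753 CPM.

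The striatal extreme of the comparison was held by transcription factors and receptors that were close to absent in frontal cortex. Isl1, a LIM homeobox factor of direct pathway and cholinergic neurons, had 0 counts in all 6 frontal cortex libraries and 3525 counts over the 7 striatal libraries, which makes it at least 975-fold higher in striatum when a floor of 3 counts over the group is set for frontal cortex. In striatum it lay between 7.86 and 23.7 CPM. Six3, a homeobox factor of the ventral forebrain, had 6 counts in all frontal cortex libraries together and 15128 in striatum, a ratio of 2092 after scaling by library size (95% interval 961 to 5702, counting error only). All 20 genes of largest change this way, chosen on these libraries, had every striatal library above every cortical one (19.6% of all genes did). They also included Drd2 and Adora2a, the regulator of G protein signalling Rgs9 (6.90), the orphan receptor Gpr6 (6.49), the serotonin receptor Htr1d (6.28), the synapse differentiation gene Syndig1l (7.47), Cd4 (6.95) and Dlk1 (6.49).

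Genes of spiny projection neurons were higher in striatum. All 27 tested members of the list shared by both pathways were higher in striatum, with a median log2 fold change of 3.49, where the median of all genes tested was 0.02. Their summed level was 2505 to 2625 CPM in frontal cortex and 9830 to 23793 CPM in striatum, where library 20 was lowest. Rgs9, which speeds the shut-off of G protein signals, rose from a median of 4.29 CPM in frontal cortex to 556 CPM in striatum. The smallest changes of the list were those of Gad1 (0.69), Rgs20 (0.92) and Gad2 (1.17), and Gad1 and Gad2 make GABA in interneurons of both regions.

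Both output pathways were covered. The 8 direct pathway genes were all higher in striatum (median log2 fold change 3.06), as were 34.7% of all genes tested. Drd1, dopamine receptor D1, was at 7.82 to 11.2 CPM in frontal cortex and at 143.9 to 404.8 CPM in striatum, a log2 fold change of 5.17. Tac1, the precursor of substance P, was at 6.82 to 8.63 CPM and at 84.3 to 245.2 CPM (log2 fold change 4.63). Pdyn, the dynorphin precursor, changed less (1.11), with 37 to 48.9 CPM in frontal cortex and 58.7 to 129.1 CPM in striatum. Slc35d3 (6.18), Chrm4, the muscarinic M4 receptor (1.49), Sfxn1 (0.62) and Eya1 (0.36) made up the list with Isl1. The 5 indirect pathway genes with an identifier were all higher in striatum too (median 6.49). Penk, the enkephalin precursor, was at 32.2 to 43.7 CPM in frontal cortex and at 618.7 to 1799 CPM in striatum (log2 fold change 5.15), and Sp9, a zinc finger factor, rose by 2.85. Drd1, Tac1 and Penk each had all striatal libraries above all cortical libraries.

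**Figure D3:**
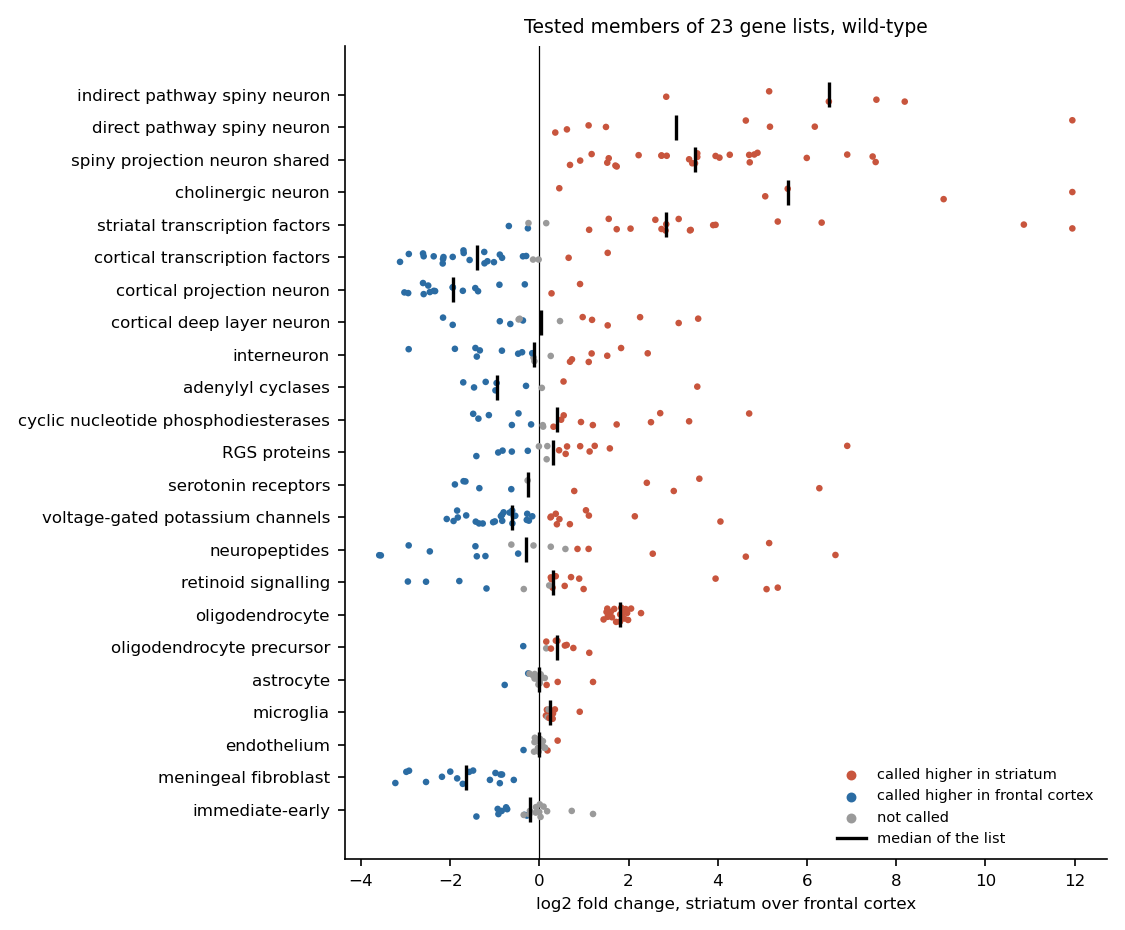
Log2 fold change of striatum over frontal cortex for each tested member of 23 gene lists, 1 point a gene, with the median of each list as a short line. The spiny neuron and oligodendrocyte lists lie wholly to the striatal side, the meningeal fibroblast list wholly to the cortical side, and the astrocyte list is centred near 0.

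Transcription factors differed by region in the direction of their lists. Of 21 tested factors listed for striatum, 17 were higher there and 2 were higher in frontal cortex (median 2.83). Over all genes tested the shares were 34.7% and 31.9%. Rxrg and Rarb, nuclear receptors for retinoids, rose by 5.35 and 3.95, Nkx2-1, a factor of ventral telencephalic interneurons, by 6.33, Zfp503 by 3.90, Pbx3 by 3.39 and Meis1 by 3.38. Dlx1 and Foxp4 were higher in frontal cortex by a small margin (-0.68 and -0.26), and Dlx2 and Sp8 did not pass (0.16 and -0.24). Of 24 tested factors listed for cortex, 20 were higher in frontal cortex and 2, Tle4 (1.53) and Pou3f1 (0.66), were higher in striatum (median -1.40). Bhlhe22, a basic helix-loop-helix factor, was at 55.3 to 66.8 CPM in frontal cortex and at 0.828 to 23.3 CPM in striatum (log2 fold change -3.12). Neurod1 (-2.93), Neurod6 (-2.61), Emx1 (-2.37), Cux2 (-2.17), Fezf2 (-2.16) and Neurod2 (-2.15) followed, all factors of cortical projection neurons or their layers. Cux1 (-0.14) and Pou3f3 (-0.02) did not pass. With the RNA integrity number as a term, 17 of the 21 striatal factors were still higher in striatum, but only 4 of the 24 cortical factors were higher in frontal cortex.

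The genes of largest change towards frontal cortex had smaller fold changes than the striatal genes of the same rank. The 20 with a mean of at least 10 CPM in frontal cortex ran from Hkdc1, a hexokinase domain protein (-3.71), and Adra1d, the alpha-1D adrenergic receptor (-3.70), to Tmem200a (-2.68). Their median level in striatum ran from 1.43% of the frontal cortex mean in library 22 to 33.2% in library 20. The part of this spread in the fold changes was not tested. Adcyap1, which encodes the peptide PACAP, was at 18.8 to 29.6 CPM in frontal cortex and at 0.103 to 4.44 CPM in striatum (log2 fold change -3.59, standard error 0.464, adjusted p = 2.38e-05, edgeR's quasi-likelihood test). Grm2, a presynaptic metabotropic glutamate receptor, was at 89.2 to 104.7 CPM in frontal cortex. In striatum it was at 1.45 CPM in library 22, 5.18 in library 18 as the median, and 37.9 in library 20 (log2 fold change -3.37, standard error 0.621). All 20, chosen on these libraries for their change, had every striatal library below every cortical library, as did 19.3% of all genes tested. Of the projection neuron list, 15 of 17 members were higher in frontal cortex (median -1.94), among them Slc30a3, the synaptic vesicle zinc transporter (-3.02), and Nrn1, a neuritin that promotes neurite growth (-2.94). Camkv (0.91) and Kcnip3 (0.27) were higher in striatum. Over all genes tested, 31.9% were higher in frontal cortex and 34.7% in striatum. With the RNA integrity number as a term 2 of the 17 were higher in frontal cortex (median -0.92), and Grm2 did not pass (-2.14, adjusted p = 0.134 by edgeR's quasi-likelihood test).

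Layer markers of the cortex did not all follow the cortex. Across all genes tested, 31.9% were higher in frontal cortex and 34.7% in striatum. Of 10 upper layer genes, 5 were higher in frontal cortex, 1 (Pou3f1) was higher in striatum and 4 did not pass. Of 14 deep layer genes, 5 were higher in frontal cortex and 6 in striatum (median 0.05, -0.05 without library 20, and 0.95 with the RNA integrity number as a term, when 5 were higher in striatum and 1 in frontal cortex). Those higher in striatum were Syt6 (3.56), Foxp2 (3.12), Nxph4 (2.26), Tle4 (1.53), Crym (1.18) and Hs3st4 (0.97). Syt6, a synaptotagmin, was at 11.6 to 23.9 CPM in frontal cortex and at 111.5 to 253.9 CPM in striatum.

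Cortical transcripts were present in the striatal libraries at graded levels, and library 20 stood at one end. The median of the 20 genes of largest change towards frontal cortex, as a percentage of their frontal cortex mean, was 1.43% in library 22, 2.02% in library 14, 3.41% in library 24 and 8.03% in library 18. It was 16% in library 26, 18.7% in library 16 and 33.2% in library 20. The 20 genes of largest change towards striatum followed the reverse order at the extremes, at 128.9% of their striatal mean in library 22, 127.7% in library 14 and 47.8% in library 20. Since both sets were chosen on these libraries, the percentages are a description. In frontal cortex the striatal genes were at 0.449% to 0.625% of their striatal mean in all 6 libraries. Over the whole set of 885 cortical genes, library 20 was the highest striatal library for 662 (74.8%), where it was highest for 29.2% of all genes tested, and it was the lowest for 566 of the 843 striatal genes (67.1%, against 28.1% of all genes). The median within-region standard deviation on the log2 scale was 0.512 in striatum and 0.135 in frontal cortex for the cortical genes, and 0.147 and 0.089 over all genes tested.

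**Figure D4:**
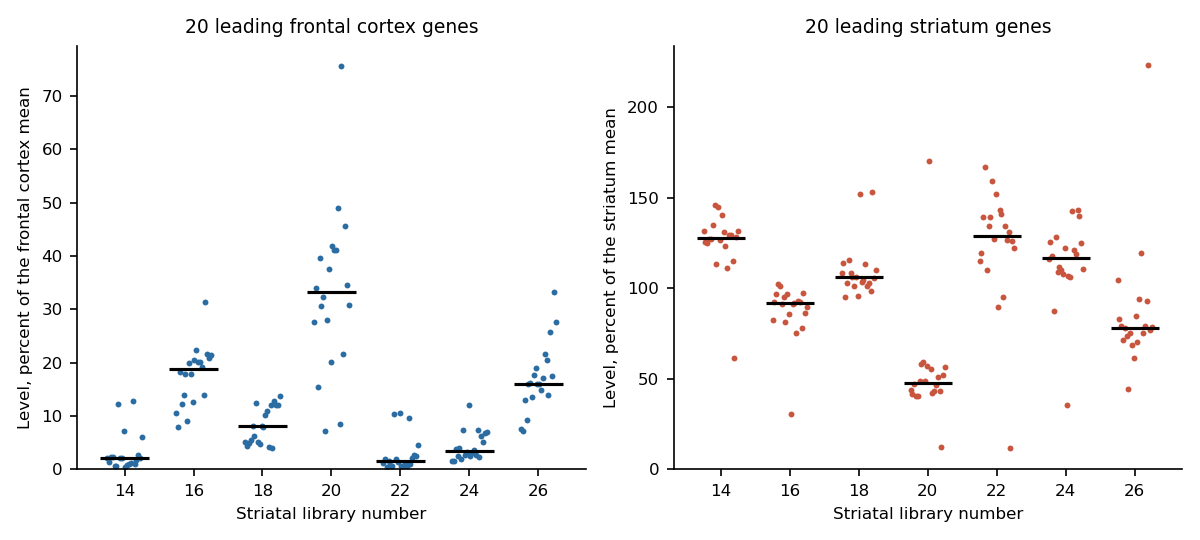
Median level of the 20 genes of largest change towards frontal cortex, as a percentage of their frontal cortex mean, and of the 20 genes of largest change towards striatum, as a percentage of their striatal mean, in each of the 7 striatal wild-type libraries. Library 20 has the highest cortical level (33.2%) and the lowest striatal level (47.8%), and libraries 14 and 22 have the lowest cortical levels.

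Without library 20 the number of genes that passed rose from 9719 to 10293, with 5222 higher in striatum and 5071 higher in frontal cortex, and those with a difference of at least 1 on the log2 scale became 911 and 1040. Of the 20 genes of largest change towards frontal cortex, 18 changed by more and 2, Slc13a4 (-3.23 to -3.19) and Fmod (-2.92 to -2.87), by less. Library 20 was left out because it carries cortical transcripts, and it was the highest striatal library for 16 of these 20. The shift is therefore a description. Grm2 moved from -3.37 to -4.20, Slc30a3 from -3.02 to -3.67, Nrn1 from -2.94 to -3.59 and Tmem215 from -2.87 to -4.04. The striatal genes moved little, Drd2 from 8.19 to 8.29 and Ppp1r1b from 4.72 to 4.82. Kcnab3, a potassium channel beta subunit, exceeded the cortex itself in library 20. It was at 114.3 CPM there, at 7.48 to 18.7 CPM in the other 6 striatal libraries and at a mean of 75.2 CPM in frontal cortex. Other genes raised in library 20 stayed below their frontal cortex mean, such as Slc30a3 (62.5 against 149 CPM) and Nrn1 (127.9 against 311.1 CPM). Among genes low in this library, Htr2c, a serotonin receptor, was at 23.4 CPM against 67.6 to 106.1 in the others, and Slitrk6 at 3.73 against 10.7 to 15.3. Npas4, an activity-induced factor, was at 8.41 CPM against 29.3 to 62.8. Library 20 also had the highest summed level of oligodendrocyte genes, 11819 CPM against 5398 to 10488 in the other striatal libraries.

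Both major dopamine receptors and the synthesis enzyme were higher in striatum. Of 5 dopamine receptor genes 3 were tested, of which Drd1 and Drd2 passed. Drd3 had 0 CPM in every frontal cortex library and 0.118 to 2.25 CPM in striatum, under the level needed for the test. Th, tyrosine hydroxylase, the rate-limiting enzyme of dopamine synthesis, lay between 0.68 and 1.15 CPM in frontal cortex and between 1.98 and 5.83 CPM in striatum, a log2 fold change of 2.43 (standard error 0.236, adjusted p = 2.45e-06, edgeR's quasi-likelihood test). Ddc, the next enzyme of the pathway, rose by 1.16. Of the breakdown enzymes, Maob rose by 0.19 and Maoa did not pass (0.09). Slc6a3, the dopamine transporter of dopamine neurons themselves, did not exceed 0.458 CPM in any library.

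Cyclic AMP signalling genes went in both directions within each family. Of 9 adenylyl cyclases, Adcy5, the main isoform of spiny neurons, was at 134.5 to 153.9 CPM in frontal cortex and at 848.4 to 2149 CPM in striatum (log2 fold change 3.54), and Adcy3 rose by 0.54. Adcy2 (-1.71), Adcy8 (-1.46), Adcy1 (-1.20), Adcy7 (-0.98), Adcy6 (-0.96) and Adcy9 (-0.30) were higher in frontal cortex, of which 1 still passed with the RNA integrity number as a term, and Adcy4 did not pass (0.06). The 18 cyclic nucleotide phosphodiesterases tested degrade the messenger. Of these, 10 were higher in striatum and 6 in frontal cortex (median 0.40), beside 34.7% and 31.9% of all genes tested. Pde10a rose most, from 49 to 79.5 CPM in frontal cortex to 770.7 to 2276 CPM in striatum (log2 fold change 4.70), followed by Pde1b (3.36), Pde1c (2.71) and Pde7b (2.50). Pde1a (-1.48), Pde11a (-1.37) and Pde5a (-1.13) were the largest in the other direction.

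The G proteins that couple receptors to the cyclases also changed in both directions, with 10 of 23 subunits higher in striatum and 9 higher in frontal cortex, beside 34.7% and 31.9% of all genes tested. Gnal, which encodes the stimulatory subunit Golf, rose by 2.23, from 151.7 to 186 CPM in frontal cortex to 394.6 to 965.3 CPM in striatum. Gnas, which encodes the related subunit Gs, was higher in frontal cortex (-1.06), at 1083 to 1152 CPM there and 361.3 to 776.5 CPM in striatum. Neither gene had overlapping groups. Gng7, the gamma subunit that partners Golf, rose by 4.27, and Gng2 (-1.21) and Gng3 (-0.95) were higher in frontal cortex. Of 16 RGS genes, 8 were higher in striatum and 5 in frontal cortex, with Rgs9 (6.90), Rgs2 (1.58), Rgs8 (1.24) and Rgs10 (1.13) at the striatal end and Rgs6 (-1.41) at the cortical end.

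Of 18 neuropeptide precursors tested, 6 were higher in striatum and 8 in frontal cortex, beside 34.7% and 31.9% of all genes tested. Neurotensin, Nts, was at 0.0378 to 0.154 CPM in frontal cortex and at 5.08 to 16.6 CPM in striatum (log2 fold change 6.64), and Trh, the thyrotropin-releasing hormone precursor, rose by 2.54. Grp, gastrin-releasing peptide (-3.55), Vip (-2.93), Cck (-2.45), Crh (-1.43), Tac2 (-1.40) and Pnoc (-1.21) were higher in frontal cortex, where 2 precursors passed with the RNA integrity number as a term. Sst, somatostatin, which marks interneurons in both regions, did not pass (-0.13), nor did Cartpt (0.59), Nmb (0.26) or Cort (-0.63). Of the opioid receptors, Oprk1, the kappa receptor that dynorphin binds, rose by 3.74 and Oprd1, the delta receptor, by 0.50, while Oprl1 was higher in frontal cortex (-0.81).

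Interneuron genes gave no shared direction, with 7 of 19 higher in striatum, 9 higher in frontal cortex and a median of -0.13. The median was 0.06 with the RNA integrity number as a term. Without that term, the shares over all genes tested were 34.7% and 31.9%. Vip (53.7 to 59.6 CPM in frontal cortex and 0.552 to 23.1 CPM in striatum), Htr3a (-1.89) and Pvalb (-1.33) were higher in frontal cortex, and Chodl (1.83) and Slc32a1, the vesicular GABA transporter (1.52), were higher in striatum. Of 9 cholinergic genes 7 had an identifier and 5 were tested, all higher in striatum (median 5.57). A gene under 1 CPM in frontal cortex could enter the test only through striatum, as Chat did, so this count is a description. Chat, which makes acetylcholine, was at 0.298 to 0.547 CPM in frontal cortex and at 10 to 30.5 CPM in striatum (log2 fold change 5.57), and Slc5a7, the choline transporter, rose by 5.06. Ache, the enzyme that degrades acetylcholine, rose by 0.45. Slc17a8, the vesicular glutamate transporter VGLUT3, which striatal cholinergic neurons also carry, rose by 2.40.

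Receptor families held subunits higher in either region, where 34.7% of all genes tested were higher in striatum and 31.9% in frontal cortex. Among 6 NMDA receptor subunits 4 were higher in frontal cortex, with Grin2a at -0.93, Grin3a at -0.85, Grin2d at -0.69 and Grin2b at -0.15, while Grin2c rose by 0.24 and the obligatory subunit Grin1 did not pass (0.03). Of 12 GABA-A subunits, 5 were higher in striatum and 6 in frontal cortex. Gabra3 changed by -1.71, against rises of Gabrd (0.84), Gabrg3 (0.80) and Gabra4 (0.70). Of 7 metabotropic glutamate receptors, 4 were higher in striatum, including Grm4 (2.22), Grm5 (1.12) and Grm3 (0.36), while Grm2 (-3.37) and Grm8 (-0.60) were higher in frontal cortex and Grm7 did not pass (-0.15). Of 11 serotonin receptors 5 were higher in each region, with Htr1d (6.28), Htr4 (3.59), Htr1b (3.01) and Htr2c (2.41) leading in striatum and Htr3a (-1.89), Htr1a (-1.70), Htr7 (-1.66) and Htr5a (-1.34) in frontal cortex. With the RNA integrity number as a term, NMDA subunits gave 0 higher in striatum and 1 in frontal cortex. The GABA-A counts were then 3 and 3, the metabotropic counts 2 and 0 and the serotonin counts 5 and 2. Grm2 did not pass in that fit.

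Of the potassium channels, all 33 voltage-gated channel genes tested passed, 10 higher in striatum and 23 higher in frontal cortex (median -0.60). These counts were 5 and 7 with the RNA integrity number as a term. Without that term, 34.7% of all genes tested were higher in striatum and 31.9% in frontal cortex. Kcnh7 was at 229.2 to 242.2 CPM in frontal cortex and at 28.5 to 140.4 CPM in striatum (log2 fold change -2.08), and Kcnc4 (-1.92), Kcnc2 (-1.84), Kcng4 (-1.83) and Kcns3 (-1.64) followed. Kcna5 (4.06) and Kcna4 (2.14), Shaker family subunits, were the largest in the striatal direction. Of 17 inward rectifier and leak channels, 10 were higher in frontal cortex (median -0.98), led by Kcnj6 (-2.70), Kcnk4 (-2.61) and Kcnj3 (-2.07), which include subunits of the channels that Gi-coupled receptors open, and 5 were higher in striatum, led by Kcnj2 (1.65). Of 24 sodium and calcium channel genes 13 were higher in striatum, including the sodium channel subunit Scn4b (3.49), and 10 higher in frontal cortex, including Cacna1g (-1.63).

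Retinoid signalling genes were higher in striatum for 11 of 17 members (median 0.30), 3 of them by at least 1 on the log2 scale. The 4 that were higher in frontal cortex, all by at least 1, included enzymes of retinoic acid. Over all genes tested, 34.7% were higher in striatum and 31.9% in frontal cortex. With the RNA integrity number as a term 5 retinoid genes were higher in striatum and 1 in frontal cortex (median 0.31). Besides Rxrg and Rarb, the binding protein gene Crabp1 rose by 5.09, from 0.0384 to 0.27 CPM in frontal cortex to 2.1 to 7.49 CPM in striatum. Aldh1a3 (-2.95) and Aldh1a2 (-2.54), which make retinoic acid, Cyp26b1 (-1.79), which degrades it, and its receptor Rara (-1.18) were higher in frontal cortex. Aldh1a2 is also a meningeal gene, and that list was higher in frontal cortex as a whole. The part of meningeal tissue in the level of Aldh1a2 was not tested.

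Glia differed by lineage. Over all genes tested, 34.7% were higher in striatum and 31.9% in frontal cortex. All 19 oligodendrocyte genes tested were higher in striatum (median 1.81), and each by at least 1 on the log2 scale. Their summed level was 1821 to 2435 CPM in frontal cortex and 5398 to 11819 CPM in striatum. Mobp rose by 2.28 and Mbp, at 608.4 to 847.8 CPM in frontal cortex and 1918 to 4305 CPM in striatum, by 1.90, both parts of myelin. Of 10 genes of oligodendrocyte precursors 8 were higher in striatum, but by less (median 0.39), with the precursor marker Pdgfra at 0.16. In the fit with the RNA integrity number, 18 of the oligodendrocyte genes passed (median 1.22), and 2 of the precursor genes did at a median of 0.37. Of 19 astrocyte genes 14 did not pass (median -0.01, a sign that turned under total count scaling and with the RNA integrity number as a term), although Slc4a4, a bicarbonate transporter, rose by 1.20 and Gjb6, connexin 30, was higher in frontal cortex (-0.78). Microglial genes passed in the striatal direction for 12 of 15 with a small median of 0.25. Every striatal library was above every cortical one for 2 of the 15, and for 19.6% of all genes tested. Cd68, a lysosomal protein of phagocytes, was the largest microglial change (0.91). With the RNA integrity number as a term, 1 microglial gene passed. Of 15 endothelial genes 12 did not pass, and of 10 pericyte and smooth muscle genes 8 did not.

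Genes of the meninges and of the ventricles also differed. All 16 meningeal fibroblast genes were higher in frontal cortex (median -1.64), with a summed level of 174 to 366.3 CPM there and 73.6 to 93.6 CPM in striatum. With the RNA integrity number as a term 12 of the 16 were higher in frontal cortex (median -1.09). Slc13a4 was at 10.8 to 27.9 CPM in frontal cortex and at 1.23 to 2.35 CPM in striatum (-3.23), Slc22a6 changed by -2.98, Fmod by -2.92 and Col1a2 by -1.48. Igf2, which the list holds as a gene of the meninges and which neighbours the deletion of the Igf2enh-/- mice, was at 51.9 to 106.8 CPM in frontal cortex and 34.2 to 44.3 CPM in striatum (log2 fold change -0.89, adjusted p = 2.13e-05, edgeR's quasi-likelihood test). Of 14 choroid plexus genes 4 were tested, of which 3 were higher in striatum and 1 did not pass. The list summed to 32 to 73.6 CPM in striatum and 7.18 to 9.81 CPM in frontal cortex, and without Ttr and Clic6 to 8.07 to 21.9 and 6.68 to 9.51 CPM, which overlap. Ttr was at 6.35 to 35.2 CPM in striatum and at most 0.292 CPM in frontal cortex (7.47), and Clic6 was at 10.4 to 34.2 CPM and at most 0.305 CPM (7.01). Of 12 ependymal genes 3 were tested, and these were higher in striatum, 1 of them without overlap. With the RNA integrity number as a term 1 of the 3 passed. The ependymal list summed to 9.19 to 33.8 CPM in striatum and 6.72 to 8.21 CPM in frontal cortex. A gene low in frontal cortex could enter the test through striatum alone, as Ttr and Clic6 did, so these counts are a description. Of 12 subventricular zone genes 5 were higher in striatum, among them the proliferation genes Top2a (3.51) and Mki67 (2.47), 2 were higher in frontal cortex and 5 did not pass (median 0.00, and 0.69 with the RNA integrity number as a term). Of all genes tested, 34.7% were higher in striatum and 31.9% in frontal cortex. The part of these tissues in the other differences was not tested.

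The 10 genes of highest level with a log2 fold change under 0.1 in size were Meg3, mt-Rnr2, Snhg11, mt-Rnr1, Kif5a, Map1a, Cpe, Hsp90ab1, Calm2 and Apoe. Meg3, a maternally expressed noncoding RNA, was at 5948 to 6523 CPM in frontal cortex and 5110 to 7755 CPM in striatum (0.00, standard error 0.0881). Map1a, a microtubule protein, was at 2113 to 2200 and 1962 to 2364 CPM (-0.02, standard error 0.0482), and Apoe, the apolipoprotein of astrocytes, at 966.8 to 1110 and 1039 to 1180 CPM (0.05, standard error 0.0474). The groups overlapped for all 3.

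The regional comparison was repeated in the 14 Igf2enh-/- libraries, none of which entered the wild-type test. There 10041 of the 14586 genes tested passed, 5074 higher in striatum and 4967 higher in frontal cortex. Of the 9719 genes that passed in wild-type mice, 8743 also passed here in the same direction and 1 in the opposite direction. Of the 1728 genes with a difference of at least 1 on the log2 scale in wild-type mice, 1728 had the same direction in Igf2enh-/- mice and 1721 also passed. The median log2 fold change of the 843 striatal genes was 1.58 in wild-type and 1.59 in Igf2enh-/- mice, and that of the 885 cortical genes was -1.43 and -1.52. Drd2 was at 1.2 to 1.63 CPM in frontal cortex and 212.8 to 431.5 CPM in striatum in these mice (7.92), and Slc17a7 at 1471 to 1673 and 98.2 to 565.8 CPM (-2.75). Igf2 had the same direction in Igf2enh-/- mice but did not pass (-0.75, adjusted p = 0.0562, edgeR's quasi-likelihood test). Across genes, Pearson's r between the log2 fold changes of the genotypes was 0.984 and Spearman's rho 0.964, and genes are not independent replicates.

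**Figure D5:**
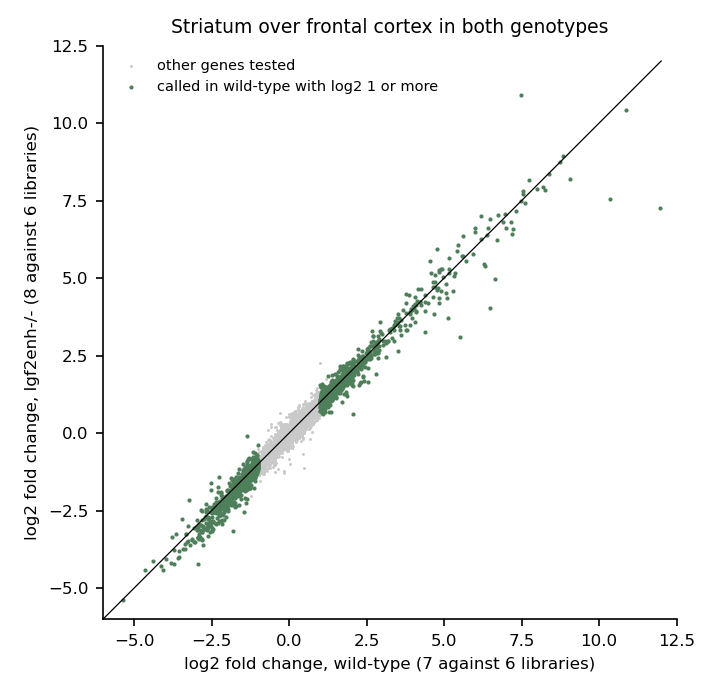
Log2 fold change of striatum over frontal cortex in Igf2enh-/- mice (8 against 6 libraries, vertical axis) against that in wild-type mice (7 against 6 libraries, horizontal axis), 1 point a gene, with the line of equality. The genes with a difference of at least 1 on the log2 scale in wild-type mice all fall in the same direction in both genotypes.

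Whether the regional difference depended on genotype was tested directly. The interaction of region and genotype passed for 0 of 14586 genes in edgeR's quasi-likelihood test over all 27 libraries, with 426 (2.92%) at an unadjusted p below 0.05, and for 0 genes in the likelihood ratio test. The smallest p belonged to Rpl28, Rpl19 and Rpl7a, which encode ribosomal proteins, with differences of -0.22, -0.20 and -0.15 between the regional log2 fold changes and an adjusted p of 0.999 each in edgeR's quasi-likelihood test. The interaction of region and sex in wild-type mice passed for 0 genes, with 480 (3.29%) at an unadjusted p below 0.05. In the likelihood ratio test 4 genes passed, which were ENSMUSG00000104383 (a difference of -2.94 on the log2 scale), Pcdh20 (0.71), Amotl2 (0.59) and Foxo6 (-0.93).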

How the data were processed

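RNA-seq of frontal cortex and striatum was analysed in 13 wild-type libraries, with 14 Igf2enh-/- libraries as a repeat. Per the labels and the study's methods, the authors trimmed 75 bp single-end reads with Trim Galore 0.5.0 and aligned them with STAR to GRCm38. The authors deposited a raw count for each of 52636 gene identifiers and library. The strand setting of the counting is not given in the sources used here, so overlapping and antisense genes cannot be separated. The tables held 0 columns from other series. Symbols were available for 32688 identifiers (2642 updated from older names) and GRCm38 positions for 25964, from RefSeq.

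A gene was kept where each library of striatum or each of frontal cortex had 1 CPM or more. Counts were scaled by TMM, and edgeR 4.0.16 under R 4.3.3 gave the tests (glmQLFit and glmQLFTest, terms for sex and region, Benjamini-Hochberg adjustment). The study's methods use edgeR within a region, with sex as a covariate. Library totals make 1 CPM equal to 23.7 to 33.9 counts, which sets the precision of low genes, and intervals of count ratios cover counting error only (exact binomial, 95%). Gene lists were described by counts and medians, with no set test. The members, the 48 lists and the markers were chosen with earlier results of these data known. Genes named are the 4 markers, the 20 of largest change each way with a mean of at least 10 CPM in the higher region, all members of lists of 12 or fewer and otherwise up to 8 called members of largest change, members against their list's direction and up to 4 that did not pass, 10 steady genes, 5 of smallest p per interaction term and up to 10 each way for library 20. Other names, such as the Adcy and Grin members beyond these, the 4 of the likelihood ratio test and Drd3, Slc6a3 and the summed lists, were chosen after their values were seen. Gpr52, Hbb-bs, Hbb-bt, Kcnj11, Lhfpl3, Lhx8, Pou3f2, Slc18a3 and Trf were not analysed here. The values of some genes that the rule would name are not reported here.

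The alternatives tried were DESeq2 1.42.0 and its size factors, the likelihood ratio test of edgeR, voom in limma 3.58.1, total count scaling, filterByExpr, 1 CPM in all 13 libraries, no filter beyond 1 count, no sex term, a term for the RNA integrity number, a test against a log2 change of 1 (glmTreat) and leaving out each library. The integrity term for the lists was chosen after seeing the data. The fit was tested on simulated data. Plots were made in matplotlib 3.10.9 under Python 3.11.15.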

Additional observations from a re-analysis of the deposited data

Results flagged for a closer look

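Single libraries stood apart within their region in 10 of 178 checks of the gap between an extreme library and its nearest neighbour, given here as the share of the group's range. Values were log2(CPM + 0.5) for a gene and its mean over the tested members for a list, and about 1 in 20 such checks do so by chance. Library 20 was the lowest striatal library in 6 of these. The share was 0.629 for Six3, 0.64 for Slc10a4, 0.63 for the mean of the direct pathway genes, 0.627 for the striatal transcription factors, 0.581 for the cholinergic genes and 0.576 for the retinoid genes. In frontal cortex, library 12 was highest for Six3 (0.711) and for the shared spiny neuron genes (0.632). For Six3 this rested on 4 counts in library 12, of 6 over all frontal cortex libraries. There library 8 was highest for the mean of the direct pathway genes (0.696) and library 10 was lowest for Glt8d2 (0.828). The cause of these gaps was not tested.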

How the results depend on the processing

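The direction of the 42 markers and genes of largest change was the same under all alternatives run on them. Of their results, 18 no longer passed in an alternative, 4 in the test against a log2 change of 1 and 14, all of genes higher in frontal cortex, with the RNA integrity number as a term. DESeq2 gave no p-value for Adra1d, Grm2, Prdm8 and Slc30a3. The RNA integrity term changed the counts to 2419 genes higher in striatum and 1651 higher in frontal cortex (4070 in all), with 191 higher in frontal cortex by at least 1 on the log2 scale, and the share of calls higher in striatum was then 59.4% against 52.1%. Without a filter beyond 1 count, 1830 and 1700 genes had a difference of at least 1 towards striatum and frontal cortex, in the test against a log2 change of 1 it was 519 and 266, and at a difference of at least 2 it was 276 and 197. Requiring 1 CPM in all 13 libraries left 568 towards frontal cortex. The likelihood ratio test of region by sex gave 4 genes against 0. The cause of these shifts was not tested, except that the filters change which genes are tested and the thresholds which are counted. Leaving out each library gave 9211 to 10293 genes, 4675 to 5222 of them higher in striatum and 4399 to 5071 higher in frontal cortex, with 821 to 911 and 815 to 1040 at a difference of at least 1. Without library 15 the Igf2enh-/- count was 9877. Medians were above 0 for 25 of 47 lists, and for 23 without library 20, when the deep layer (0.05 to -0.05) and vesicular transporter lists (0.08 to -0.05) changed sign. In an alternative chosen after seeing the data, the RNA integrity term, medians were above 0 for 30 lists and 9 changed sign, among them interneuron (-0.13 to 0.06), neuropeptide (-0.30 to 0.12), subventricular zone (0.00 to 0.69) and blood (0.22 to -0.31) genes. Under total count scaling the astrocyte, endothelium and subventricular zone medians changed sign within 0.02 of 0. No paired analysis was possible because the regions share no library numbers and the labels do not say which libraries share a mouse. Genes under 1 CPM in a library of each region were not tested.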

Other observations

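Guidance and matrix genes had members higher in either region. Of 19 Eph receptors and ephrins, 5 were higher in striatum and 10 in frontal cortex, beside 34.7% and 31.9% of all genes tested. Efnb3, ephrin B3, was at 32.4 to 42.7 CPM in frontal cortex and 137.2 to 193.6 CPM in striatum, a log2 fold change of 2.16 (standard error 0.0971, adjusted p = 1.48e-08, edgeR's quasi-likelihood test), without overlap. Ephb3 (-1.84), Ephb2 (-1.58) and Epha3 (-1.51) were the largest towards frontal cortex. Of 31 semaphorin, plexin and neuropilin genes, 9 were higher in striatum, led by Sema3f (1.59), and 12 in frontal cortex, led by Plxna1 (-1.64). Among genes of the perineuronal net, Hapln4, a link protein, was at 155.4 to 174.6 CPM in frontal cortex and 11.5 to 112.2 CPM in striatum (-2.13), and Hapln2, a link protein of myelinated fibres, rose by 2.06.

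Camk2a, a subunit of a calcium-dependent kinase, was at 5350 to 6209 CPM in frontal cortex and 2482 to 4048 CPM in striatum, higher in frontal cortex, while Camk2b, its partner in the holoenzyme, was at 973.1 to 1011 and 1215 to 1896 CPM (0.76), and neither overlapped. Bdnf, the neurotrophin that cortical axons deliver to striatum, was at 31 to 41.1 CPM in frontal cortex and 0.241 to 14.1 CPM in striatum (-2.41). Of 20 immediate-early genes, 0 were higher in striatum, 8 were higher in frontal cortex, including Ier2 (-1.41), Dusp6 (-0.93), Nptx2 (-0.92) and Fos (-0.84), and 12 did not pass. Over all genes tested, 34.7% were higher in striatum and 31.9% in frontal cortex. Blood genes did not pass in either direction (3 of 3). With the RNA integrity number as a term, 2 of the Eph and ephrin genes and 4 of the immediate-early genes were higher in frontal cortex, with medians of -0.23 and -0.30 that were -0.21 and -0.22 without it.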
